A study of Mus musculus with 18 samples.

Results

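Microglia of the corpus callosum were compared with microglia of the cortex in mouse pups at postnatal day 3 (P3). The comparison took the 6 arrays labelled with that age, 3 from each region, out of 18 in the series, and all 22180 genes that a probe set with a single gene symbol represents. The other 12 arrays come from both regions of adults and of pups at postnatal day 7 (P7), and were used for the spread between arrays and for the same regional difference at those ages. All groups are untreated C57Bl/6 mice from specific-pathogen-free housing, with no allele or agent named. Cells were enriched on a Percoll gradient and sorted as CD45+, CD11b+ and Gr1-. The sources used here do not say how many animals, of which sex, stand behind an array, so p-values measure only the spread between these arrays, which may be technical. With 3 arrays a group, precision is limited throughout. The series' design text names P7 and adult brains only, and the question asked of the P3 arrays is not given there.

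Microglia are the resident macrophages of the brain. They settle the brain before birth, divide during the first postnatal weeks and depend on the receptor Csf1r. The corpus callosum is the large tract of axons that joins the hemispheres, and in mouse pups its axons have yet to be wrapped in myelin. Early postnatal white matter is known to hold rounded, phagocytic microglia that express Itgax (CD11c), Igf1, Clec7a and Gpnmb, also called axon tract-associated or proliferative-region-associated microglia. The gate used for the sort also passes macrophages of the meninges and perivascular spaces (border macrophages) and monocytes, and RNA of neurons can reach a sort as debris or as material inside phagocytes.

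The label was first checked against marker genes. Values are log2 levels after the robust multi-array average (RMA), and the array medians lay between 5.58 and 5.74. The purinergic receptor gene P2ry12 stood at 11.56, 11.74 and 11.51 on the callosal arrays and at 11.73, 11.90 and 11.89 on the cortical ones. Cx3cr1, the fractalkine receptor gene, lay between 11.70 and 11.99, the microglial transcription factor gene Sall1 between 10.04 and 10.63, and Tmem119 between 7.45 and 8.39 on all 6 arrays. Among markers of other cells, Cd3e of T cells (at most 5.05), Pdgfra of oligodendrocyte precursors (at most 4.67) and Ly6g of neutrophils (at most 4.06) stayed below the medians. Other markers of the last groups did not: the precursor genes Cspg4 (6.04 to 6.35) and Olig2 (5.74 to 6.45) lay higher, and the neutrophil gene S100a8 reached 8.76. The border macrophage genes Mrc1 (9.61 to 10.45) and Folr2 (6.64 to 8.81) lay above the medians too, and further such markers and those of neurons are given below. Xist, transcribed from the inactive X chromosome, spanned 6.62 to 11.57 and the Y-linked Kdm5d 4.23 to 7.52 within these 6 arrays, so the arrays differed in the share of female and male RNA. Correlations between the 6 arrays ran from 0.971 to 0.984.

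Corpus callosum replicate 3, called callosal replicate 3 below, stood apart. On it, 81 genes lay at least 1 log2 unit above all 5 other P3 arrays, against 0 to 13 genes on each of the others. The largest excesses, in genes chosen after their values were seen, were in Saa3, an acute phase protein gene (10.17, others 5.01 to 5.7), the fibronectin gene Fn1 (10.003, others 5.11 to 5.74), the decoy receptor gene Il1r2 (8.69, others 4.402 to 4.86) and the cytokine signalling inhibitor Socs3 (9.67, others 5.73 to 6.44). The scavenger receptor gene Msr1 (9.08, others 5.76 to 6.36) and the clotting factor gene F13a1 (7.94, others 4.80 to 5.65) were also in excess. The neutrophil genes S100a8 and S100a9 were highest on the same array (8.76 and 8.44) but also reached 8.19 and 6.82 on cortex replicate 1. The main counts and several list medians are therefore given below with and without it. Without it the callosal minus cortical difference shrank in Ms4a4a (1.87 to 1.14), Pla2g7 (1.56 to 1.12) and Bnip3 (1.75 to 1.38). It also shrank in Meg3 (-1.32 to -1.04) and Gap43 (-1.27 to -0.95). The difference grew in Atp6v0d2 (2.81 to 3.54) and Clec7a (1.98 to 2.43).

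In a limma model of all 18 arrays, 112 of the 22180 genes, or 0.505%, differed between the regions at P3 at an adjusted p under 0.05, which is what called means below. Of these, 78 were higher in callosal microglia (0.352% of genes) and 34 lower (0.153%). The higher genes had a median difference of 0.90 log2 units and the lower genes of -0.81, against 0.01 over all genes, and a difference of more than 1 log2 unit was seen in 31 and 11 of them. Of the higher genes 7 and of the lower genes 14 had a mean level below the array medians, where the size of a difference is uncertain. All 112 had arrays that did not overlap between the regions, as did 3513 genes in all (15.8%), 2033 with callosum higher (9.17%) and 1480 with callosum lower (6.67%). In a bulk sort, fewer cells of a type and less RNA per cell cannot be told apart. Without callosal replicate 3 the model called 126 genes (91 higher and 35 lower), of which 66 belonged to the 112. Without cortex replicate 1 or 2 it called 55 and 29, and without cortex replicate 3 it called 77, of which 49 were higher. When the array medians were made equal, which moved the median of all genes to 0.06, 183 genes were called and 83.6% of them were higher, against 69.6% of the 112.

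**Figure D1:**
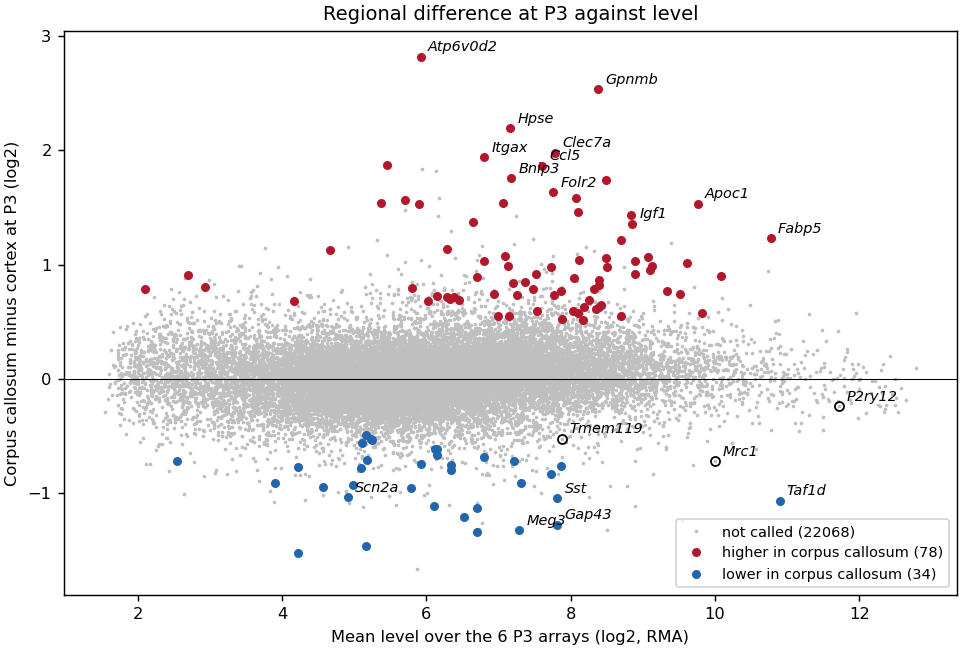
Difference between corpus callosum and cortex at P3 (log2, vertical axis) against the mean level over the 6 P3 arrays (log2, horizontal axis) for 22180 genes, with the 78 genes called higher in red and the 34 called lower in blue; open circles mark 3 reference genes that were not called. The differences of the higher genes reach 2.81 (Atp6v0d2), and P2ry12, Tmem119 and Mrc1 lie below 0 without being called.

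Genes of axon tract and CD11c-type microglia were higher in callosum. Their list, like the others below, was chosen with earlier results of these data known. Of 24 measured members of this list 13 rose, 0 fell, all 24 differences were above 0 and their median was 1.003, against 0.01 over all genes. The shares called over all genes were 0.352% higher and 0.153% lower. Without callosal replicate 3 the count was again 13, with a median of 0.91, but it was 5 without cortex replicate 2 and 9 to 11 without each other array. Heparanase, the enzyme that cuts heparan sulfate chains of the extracellular matrix, had the smallest adjusted p of all genes. Hpse stood at 8.55, 8.25 and 7.97 on the callosal arrays and at 6.13, 6.08 and 5.98 on the cortical ones. The lowest callosal value was far above the highest cortical value, and the difference was 2.19 ± 0.20 (SE, n = 3 per group, adjusted p 7.35e-05). Gpnmb, a glycoprotein of phagocytes induced under lysosomal load, had callosal values of 9.86, 9.46 and 9.62 and cortical values of 7.08, 7.42 and 6.86. Its groups lay far apart and its difference was 2.53 ± 0.34 (adjusted p 0.00187). Itgax, the CD11c integrin chain, was measured at 7.87, 7.84 and 7.597 in callosum and at 6.13, 5.71 and 5.65 in cortex. The spread within each region was small beside the gap of 1.94 ± 0.28 (adjusted p 0.00368).

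Among the other members, Atp6v0d2 and Clec7a varied widely over the callosal arrays. For Atp6v0d2, an inducible subunit of the vacuolar proton pump, the values were 8.404, 7.72 and 5.87 in callosum and 4.71, 4.38 and 4.46 in cortex. Callosal replicate 3 was far lower than its group, and the cortical values were below the array medians, so the difference of 2.81 ± 0.46 (adjusted p 0.00749) is uncertain in size. Clec7a, the beta-glucan receptor dectin-1, showed the same order of arrays, with 9.69, 8.78 and 7.87 against 6.91, 6.53 and 6.96 (1.98 ± 0.33, adjusted p 0.00834). Igf1, which encodes a trophic factor for neurons and oligodendrocytes, stood at 9.70, 9.63 and 9.26 against 7.90, 8.19 and 8.43. Its callosal arrays were all higher, by 1.35 ± 0.27 on average (adjusted p 0.031). The phospholipid-binding annexin gene Anxa5 was tight in both regions, at 9.46, 9.36 and 9.09 against 8.03, 8.08 and 8.16 (1.22 ± 0.14, adjusted p 0.000614). The galectin gene Lgals1 (1.03 ± 0.17), the chemokine gene Ccl9 (1.02 ± 0.17), the lysosomal gene Pld3 (0.99 ± 0.16), the inhibitory cystatin gene Cst7 (0.78 ± 0.14) and the receptor gene Cd200r4 (1.54 ± 0.31) rose too, with adjusted p from 0.0074 to 0.0334. Csf1, a ligand of Csf1r, stood at 8.82, 8.54 and 9.30 against 7.62, 7.85 and 7.82 and missed the threshold (1.12, adjusted p 0.0785). Cd68 was nearly level (0.09, adjusted p 0.81). Leaving out cortex replicate 2 ended the calls of Atp6v0d2 (adjusted p 0.0504), Clec7a (0.0586), Ccl9 (0.0504), Pld3 (0.0538), Cst7 (0.0936), Igf1 (0.1) and Cd200r4 (0.119). Igf1 further depended on cortex replicate 1 (0.142 without it) and on callosal replicates 1 (0.0846) and 2 (0.0647). Dropping callosal replicate 1 also ended the call of Cst7 (0.0617). Cd200r4 kept its call only without callosal replicate 3 (0.0521 to 0.119 without each of the others).

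**Figure D2:**
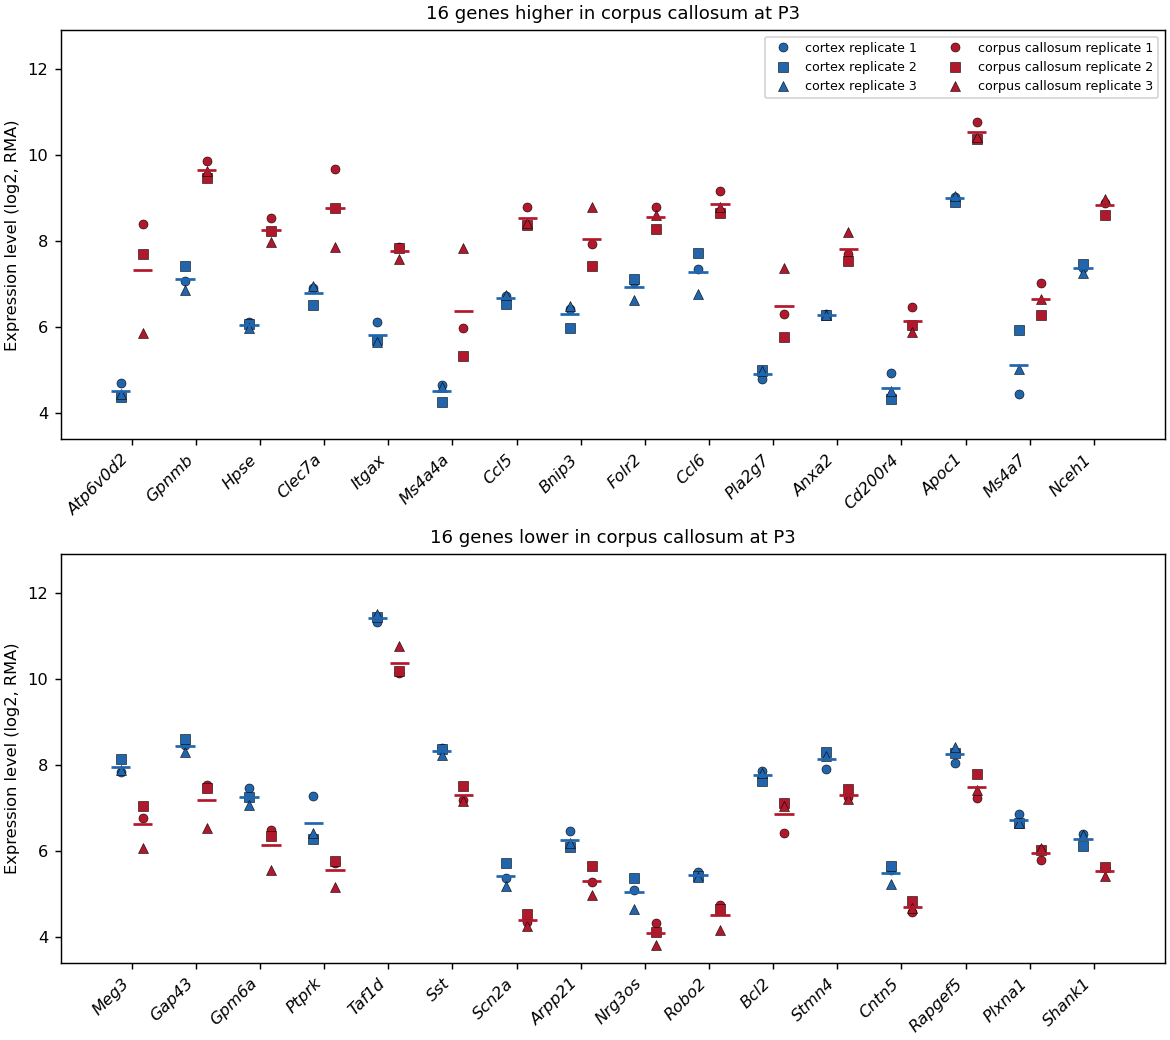
Expression level (log2 RMA, vertical axis) on each P3 array of the 16 genes with the largest called difference in each direction (horizontal axis); blue symbols are cortex, red symbols corpus callosum, circles, squares and triangles replicates 1, 2 and 3, and bars group means. Atp6v0d2, Clec7a and Ms4a4a spread widely over the callosal arrays, whereas Hpse, Itgax and Apoc1 form tight groups.

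The 250 bases before the RefSeq transcription start (GRCm38.p6) of Hpse and Itgax are shown because both genes were called members of the CD11c-type list and their windows held the letters of a searched motif. Capitals mark ACGTG, the core that hypoxia-inducible factors bind, in Hpse (111 bases before the start), and TGAGTCA, the site of AP-1 factors, in Itgax (56 bases before the start).
Hpse, chr5:100719717-100719966, minus strand: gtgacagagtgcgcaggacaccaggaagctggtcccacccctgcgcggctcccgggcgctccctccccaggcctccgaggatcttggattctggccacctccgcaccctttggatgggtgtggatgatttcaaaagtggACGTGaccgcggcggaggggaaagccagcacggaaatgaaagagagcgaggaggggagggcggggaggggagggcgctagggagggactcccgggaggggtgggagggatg
Itgax, chr7:128129300-128129549, plus strand: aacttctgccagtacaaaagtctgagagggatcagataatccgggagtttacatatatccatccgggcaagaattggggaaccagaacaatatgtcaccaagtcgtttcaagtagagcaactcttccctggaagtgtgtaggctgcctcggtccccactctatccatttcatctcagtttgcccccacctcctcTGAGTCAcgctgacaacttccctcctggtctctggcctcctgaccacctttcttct

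Several genes that carry, store and break down lipids rose. Of 17 measured members of the lipid handling list 6 were called higher and 0 lower, 16 differences were above 0 and the median was 0.69. Among all genes 0.352% were called higher and 0.153% lower. Apoc1, an apolipoprotein gene, stood at 10.78, 10.39 and 10.42 in callosum and at 9.03, 8.91 and 9.06 in cortex. Its groups were clearly apart (1.53 ± 0.25, adjusted p 0.0074). The neutral cholesterol ester hydrolase gene Nceh1 had callosal values of 8.89, 8.61 and 8.99 and cortical values of 7.39, 7.47 and 7.26 (1.46 ± 0.19, adjusted p 0.00145). Apoc2, the cofactor of lipoprotein lipase, was highest on callosal replicate 3, with 6.97, 7.04 and 7.98 against 6.23, 5.71 and 5.94 (1.37 ± 0.25, adjusted p 0.0175). Fabp5, a fatty acid carrier, was abundant everywhere, at 11.40, 11.21 and 11.56 against 10.02, 10.45 and 10.01 (1.23 ± 0.26, adjusted p 0.0403). Plin2, which coats lipid droplets (0.92 ± 0.19, adjusted p 0.0384), and the acid lipase gene Lipa (0.77 ± 0.15, adjusted p 0.0229) complete the calls. The cholesterol exporters Abca1 (0.71, adjusted p 0.0771) and Abcg1 (0.69, adjusted p 0.0694) and Apoe (0.49, adjusted p 0.208) were above cortex without passing. Without callosal replicate 3 the list had 3 members called and a median of 0.48, without cortex replicate 2 it had 1, and without callosal replicate 2 or cortex replicate 1 it had 3. Apoc2 was lost without it (adjusted p 0.0513) and without cortex replicate 2 (0.103) or 3 (0.0573), and Apoc1 without cortex replicate 2 (0.0504). Fabp5 and Plin2 were lost whichever P3 array was left out (0.0558 to 0.159 and 0.0509 to 0.128). For Lipa the call ended on dropping callosal replicate 2 (0.0671), cortex replicate 1 (0.0662) or cortex replicate 2 (0.112).

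The lysosome and proton pump genes were shifted by a small amount in nearly all members. Of 28 measured members 27 were above 0, with a median of 0.32, but only Lipa and Atp6v0d2 were called, and neither was without cortex replicate 2 (medians 0.25 to 0.37 over the arrays left out). Among all genes 0.352% were called higher. Without cortex replicate 1, 1 was called. At an unadjusted p under 0.05, 17 were higher and 0 lower, where 7.68% and 5.16% of all genes were. The array means of the list were 9.77, 9.75 and 9.82 in callosum and 9.33, 9.31 and 9.42 in cortex, so the regions did not overlap. Other pump subunits lay below Atp6v0d2 in difference, among them Atp6v1b2 (0.58, adjusted p 0.055) and Atp6v1a (0.54, adjusted p 0.0612). Mitf, a transcription factor of lysosomal genes, stood at 8.05, 8.03 and 7.87 against 6.76, 7.30 and 7.22 (0.89, adjusted p 0.055). The related genes Tfeb (0.24) and Tfe3 (-0.10) were not called.

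A few glycolytic and hypoxia-responsive genes rose. Of 14 measured glycolysis members 2 were called higher and 0 lower, 13 were above 0 and the median was 0.41. Of 15 measured hypoxia response members 1 was called higher and 0 lower, 11 were above 0 and the median was 0.50. Among all genes 0.352% were called higher and 0.153% lower. Without cortex replicate 2, 0 members of either list were called in limma. Tpi1, triose phosphate isomerase, had values of 8.63, 8.87 and 9.55 in callosum and of 7.99, 7.79 and 8.10 in cortex. All callosal arrays were higher, callosal replicate 3 most of all (1.06 ± 0.20, adjusted p 0.0222). Pgk1, phosphoglycerate kinase, followed the same order, with 9.39, 9.40 and 9.92 against 8.66, 8.57 and 8.62 (0.95 ± 0.17, adjusted p 0.0119). Bnip3, a mitophagy gene induced by low oxygen, stood at 7.94, 7.42 and 8.81 against 6.43, 5.99 and 6.49 (1.75 ± 0.28, adjusted p 0.0074). Egln3, an oxygen sensor gene, differed by as much but spread from 6.01 to 8.18 over the callosal arrays (1.82, adjusted p 0.121). Pfkp was lower without passing (-0.56, adjusted p 0.159), and Ldha (0.17, adjusted p 0.802) was nearly level. Tpi1, Pgk1, Bnip3 and Egln3 were highest on callosal replicate 3, and without it Tpi1 had an adjusted p of 0.0575 and the medians were 0.32 and 0.31. Tpi1 was further lost without cortex replicate 1 (0.0779) or 2 (0.11), Pgk1 without cortex replicate 2 (0.066) and Bnip3 without cortex replicate 2 (0.0542).

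The promoters of Bnip3 and Pgk1 are shown because these genes were called members of the hypoxia and glycolysis lists and held ACGTG, which is in capitals on either strand. In Bnip3 it forms part of CACGTG, an E-box that MiT/TFE factors also bind, 108 bases before the start. In Pgk1 matches begin 150 and 131 bases before the start.
Bnip3, chr7:138909507-138909756, minus strand: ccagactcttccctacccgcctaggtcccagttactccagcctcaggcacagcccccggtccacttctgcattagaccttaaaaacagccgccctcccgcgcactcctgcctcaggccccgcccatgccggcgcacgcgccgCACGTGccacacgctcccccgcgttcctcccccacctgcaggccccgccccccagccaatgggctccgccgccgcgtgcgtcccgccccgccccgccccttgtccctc
Pgk1, chrX:106186850-106187099, plus strand: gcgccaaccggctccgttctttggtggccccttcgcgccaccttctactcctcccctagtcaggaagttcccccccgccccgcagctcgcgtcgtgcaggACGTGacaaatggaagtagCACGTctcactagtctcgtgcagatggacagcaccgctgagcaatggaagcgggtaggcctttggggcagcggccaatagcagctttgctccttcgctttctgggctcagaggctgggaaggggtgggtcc
Over both strands of these 250 bases, ACGTG was found in 19 of 73 promoters (26.0%) of the 59 higher genes that RefSeq's table held and in 4 of 41 promoters (9.76%) of 24 lower genes, where 16.6% of all 32851 promoters held it. CACGTG, which contains ACGTG, was in 5.48% of the promoters of higher genes, 2.44% of those of lower genes and 6.02% of all. TGACTCA or TGAGTCA was in 6.85%, 7.32% and 4.46%, and GAGGAA, the core of PU.1 sites, in 19.2%, 24.4% and 23.3%. The letters are a description of these windows, and a match is not a bound site.

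Of 17 chemokine ligands 3 were called higher and 0 lower, 12 were above 0 and the median was 0.50. Among all genes 0.352% were called higher and 0.153% lower. Ccl5, which attracts T cells and monocytes, had 8.80, 8.37 and 8.44 in callosum and 6.72, 6.55 and 6.75 in cortex. Its arrays lay in tight, distant groups (1.86 ± 0.24, adjusted p 0.00183). Ccl6, a myeloid chemokine gene, stood at 9.17, 8.65 and 8.79 against 7.37, 7.72 and 6.77 (1.59 ± 0.22, adjusted p 0.00214). Ccl2, Ccl7, Ccl12, Cxcl1 and Cxcl2 were at or below 0 (-0.32 to -0.05) and none was called. Without cortex replicate 2 the call of Ccl9 was lost (0.0504). Of 14 members of the MS4A family of membrane proteins 2 rose, and 0 to 3 did when an array was left out. Ms4a4a varied over the callosal arrays, with 5.98, 5.33 and 7.84 against 4.65, 4.26 and 4.62 (1.87 ± 0.38, adjusted p 0.0334), and was lost without any of the cortex arrays (0.0808 to 0.116). Ms4a7, which also marks border macrophages, spread from 4.45 to 5.93 in cortex and from 6.28 to 7.04 in callosum (1.53 ± 0.29, adjusted p 0.0201). Dropping callosal replicate 1 (0.0754), cortex replicate 1 (0.109) or cortex replicate 3 (0.0737) ended its call.

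Among called genes in no list, Lag3, an inhibitory receptor gene, was almost constant within each region, at 9.56, 9.52 and 9.57 against 8.06, 8.04 and 8.26 (1.43 ± 0.23, adjusted p 0.0074). The annexin gene Anxa2 stood at 7.71, 7.55 and 8.23 against 6.30, 6.29 and 6.28 (1.54 ± 0.19, adjusted p 0.00098). Pla2g7, a secreted phospholipase gene, was highest on callosal replicate 3 (6.32, 5.77 and 7.38 against 4.80, 5.0 and 4.98) and rose by 1.56 ± 0.33 (adjusted p 0.0385). Its call was lost without any array other than callosal replicate 2 (0.0709 to 0.152). In all, 51 of the 78 higher genes and 27 of the 34 lower genes were in none of the 32 lists.

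Genes of the homeostatic microglial state were not called. Of 20 measured members, 0 passed in limma, although 6 were lower and 0 higher at an unadjusted p under 0.05. Over all genes 5.16% were lower and 7.68% higher at that threshold, and 51.9% of differences were above 0. The median was -0.17 (-0.11 without callosal replicate 3 and -0.26 without callosal replicate 2), with 16 below 0. Siglech stood at 11.12, 11.04 and 10.64 against 11.24, 11.51 and 11.40 (-0.45 ± 0.15, adjusted p 0.182). Tmem119 had 7.45, 7.86 and 7.54 against 8.03, 7.99 and 8.39 (-0.52 ± 0.22, adjusted p 0.332). Their arrays did not overlap, as in 6.67% of all genes with callosum lower, yet Csf1r (-0.05), Fcrls (0.13) and Cx3cr1 (0.13) were near 0.

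Cell division genes were lower in callosum by sign, without any call. In the mitosis and kinetochore list 20 of 21 differences were below 0 with a median of -0.42, where 51.9% of all genes were above 0. Under limma 0 were called and 11 were lower at an unadjusted p under 0.05, where 5.16% of all genes were. Mki67, a marker of cycling cells, stood at 9.30, 9.10 and 9.56 in callosum and at 10.18, 10.07 and 9.97 in cortex (-0.75 ± 0.22, adjusted p 0.138). Top2a, the topoisomerase of dividing cells, followed with 8.66, 8.79 and 8.53 against 9.40, 9.23 and 9.16 (-0.61 ± 0.23, adjusted p 0.25). The arrays of both genes were apart, as in 6.67% of all genes with callosum lower, whereas Ccnb2 was level (0.001). In the S phase list 17 of 19 were below 0 (median -0.22, or -0.14 without callosal replicate 1), 0 were called and 6 were lower at an unadjusted p under 0.05, with Dut nearest the threshold (-0.63, adjusted p 0.0503).

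Complement (median 0.18), interferon response (0.22), antigen presentation (0.15), sterol synthesis (-0.003), immediate early (0.02) and heat shock genes (-0.002) had 0 called members in limma. At an unadjusted p under 0.05 they had 3, 5, 6, 0, 3 and 0 higher members and 0, 2, 0, 2, 0 and 0 lower members. Over all genes 7.68% were higher and 5.16% lower at that threshold. The complement median was -0.03 without callosal replicate 3 and 0.31 without callosal replicate 2. The interferon median was 0.026 without callosal replicate 2 and 0.14 without cortex replicate 1, the immediate early median 0.19 without callosal replicate 1 and the antigen presentation median 0.23 without cortex replicate 1. The medians of the sterol and heat shock lists took either sign when an array was left out (-0.13 to 0.11 and -0.09 to 0.06). Among 23 phagocytosis and pattern receptors Clec7a alone was called, where 0.352% of all genes were called higher. The median of that list was 0.23, or 0.07 without callosal replicate 3.

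**Figure D3:**
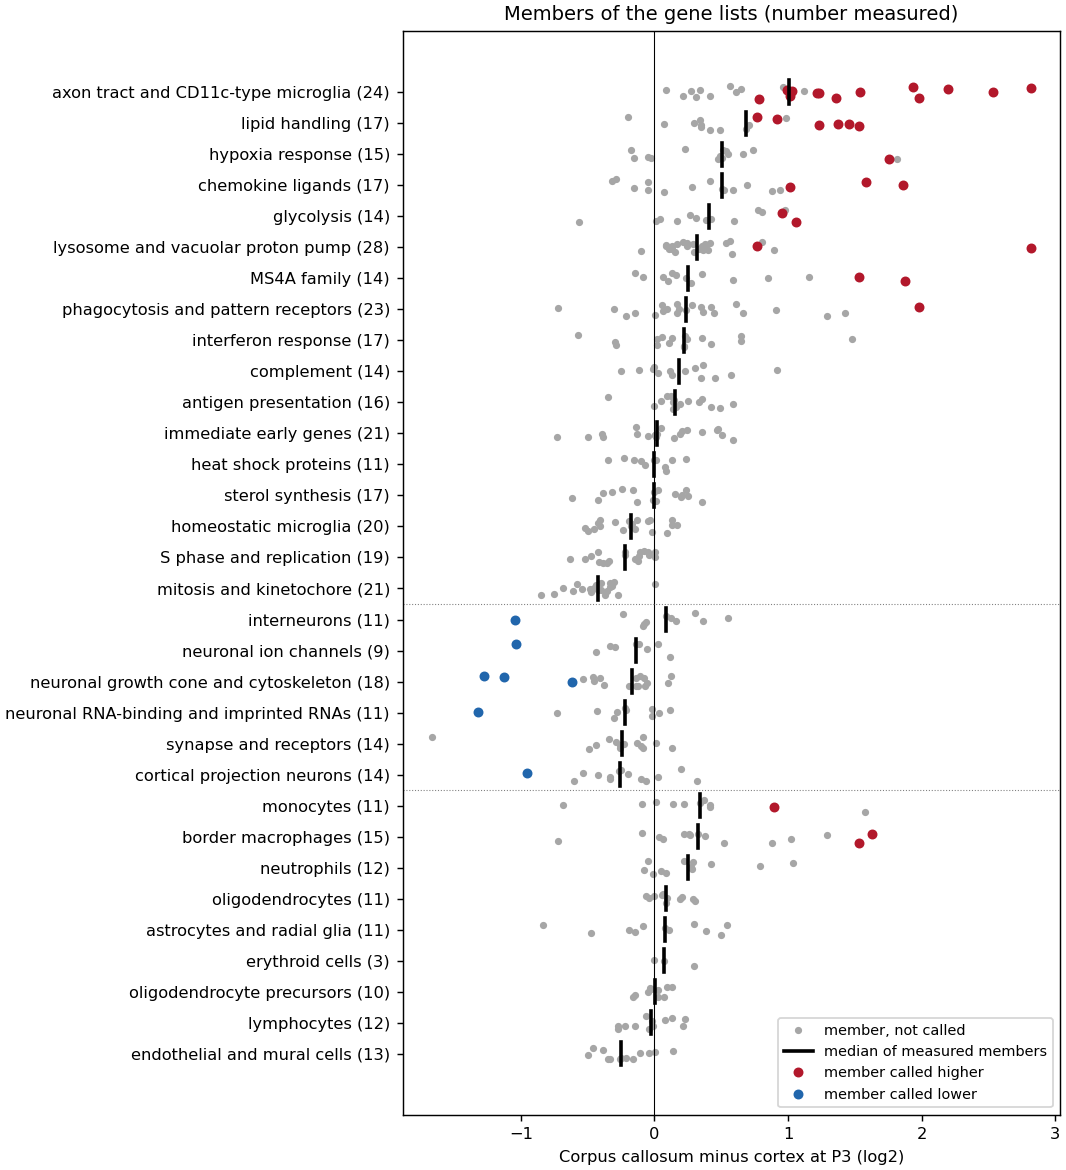
Difference between corpus callosum and cortex at P3 (log2, horizontal axis) of each measured member of 32 gene lists (rows, number measured in brackets), with called members in red (higher) or blue (lower) and the list's median as a black bar. Every called member of the 17 microglial lists (above the first dotted line) is higher and every called member of the 6 neuron lists (between the dotted lines) is lower.

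The genes lower in callosal microglia held many transcripts of neurons. Over the 6 neuron lists, with 77 measured genes, 0 were called higher and 7 lower (9.09%, against 0.153% of all genes), 60 differences were below 0 and the median was -0.19. The median was -0.096 for growth cone genes, -0.11 for synapse genes and -0.016 for ion channels without callosal replicate 3, against -0.17, -0.24 and -0.14 with it. It reached -0.31 for growth cone genes without callosal replicate 1 and -0.295 for ion channels without callosal replicate 2. Markers of endothelial and mural cells lay the same way without any call in limma, with 11 of 13 below 0 and a median of -0.25 (-0.32 to -0.17 over the arrays left out). Their array means were 5.20, 5.19 and 5.14 in callosum and 5.41, 5.28 and 5.52 in cortex, and did not overlap. Gap43, a protein of growth cones, stood at 7.54, 7.46 and 6.54 in callosum and at 8.46, 8.60 and 8.29 in cortex. Callosal replicate 3 was lowest and the difference was -1.27 ± 0.18 (adjusted p 0.00406). The groups did not overlap, as in 6.67% of all genes with callosum lower. Gpm6a, a neuronal membrane glycoprotein gene, gave 6.49, 6.36 and 5.56 against 7.47, 7.25 and 7.07 (-1.13 ± 0.20, adjusted p 0.0119). L1cam, an axonal adhesion molecule gene, differed less (-0.61 ± 0.11, adjusted p 0.0162). The imprinted long non-coding RNA Meg3 had 6.77, 7.04 and 6.07 against 7.83, 8.14 and 7.88 (-1.32 ± 0.21, adjusted p 0.0074).

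The sodium channel gene Scn2a stood at 4.36, 4.55 and 4.27 in callosum, below the array medians, and at 5.37, 5.72 and 5.19 in cortex (-1.03 ± 0.16, adjusted p 0.00726). Arpp21, a phosphoprotein gene of cortical projection neurons, gave 5.28, 5.65 and 4.99 against 6.48, 6.10 and 6.19 (-0.95 ± 0.15, adjusted p 0.0074). Sst, the somatostatin gene of interneurons, had 7.20, 7.52 and 7.17 against 8.39, 8.38 and 8.24 (-1.04 ± 0.21, adjusted p 0.034). These 3 genes had groups that did not overlap. The defining neuron markers were also below 0 but not called: Stmn2 (-0.11, adjusted p 0.889), Tubb3 (-0.07, 0.94), Dcx (-0.06, 0.899), Snap25 (-0.44, 0.332), Neurod6 (-0.53, 0.375) and Gad1 (-0.08, 0.919) overlapped between the regions. Of the 77 neuron genes 17 went the other way and 60 were below 0. Those above 0 included Basp1 (0.025 to 0.19 over the arrays left out), Npy (0.17 to 0.59) and Fezf2 (0.04 to 0.36), and 0 were called. Syt4, a synaptotagmin gene, spread from 3.996 to 5.81 in callosum and from 6.11 to 7.04 in cortex and missed the threshold (-1.66, adjusted p 0.102). Whether the listed transcripts came from neurons was not tested.

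The array means over the 77 neuron genes were 5.86, 5.91 and 5.59 in callosum and 6.09, 6.00 and 6.02 in cortex, so callosal replicate 3 was lowest and the regions did not overlap. At P7 the means ran from 5.57 to 5.66 and in the adult from 5.39 to 5.51. Leaving out callosal replicate 3 gave 6 lower calls and 1 higher call over these lists, and leaving out any other P3 array gave 4 to 8 lower calls. Meg3 was lost without cortex replicate 2 (adjusted p 0.0538) and Gpm6a without cortex replicate 1 (0.077) or 2 (0.0586). Dropping replicate 1 of either region ended the call of L1cam (0.0639 callosal, 0.0971 cortex). Sst was lost without any array other than callosal replicate 2 (0.0737 to 0.14). When the 6 P3 arrays were fitted alone, none of the 7 neuronal genes was called (adjusted p 0.0563 for Sst to 0.266 for L1cam). With the array mean of the 77 genes as a covariate the model called 19 genes, 7 of them among the 112, and the difference of Gap43 was -0.66. That mean separates the regions at P3, so the fit has little left to tell region from it.

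Further lower genes lay outside the lists, several of them also known from neurons. Robo2, a receptor of axon guidance, stood at 4.75, 4.65 and 4.17 against 5.52, 5.42 and 5.39 (-0.92 ± 0.15, adjusted p 0.0074). Stmn4, a tubulin-binding stathmin gene, had 7.26, 7.46 and 7.22 against 7.91, 8.30 and 8.22 (-0.83 ± 0.13, adjusted p 0.0074). The adhesion gene Cntn5 (-0.78 ± 0.13), the semaphorin receptor gene Plxna1 (-0.76 ± 0.13) and the synaptic scaffold gene Shank1 (-0.75 ± 0.15) fell with adjusted p of 0.0074, 0.00878 and 0.0334. The receptor phosphatase gene Ptprk stood at 5.73, 5.76 and 5.17 against 7.28, 6.29 and 6.42 (-1.11 ± 0.23, adjusted p 0.037). Taf1d, which encodes a subunit of the RNA polymerase I initiation complex, was the most abundant of the lower genes named here, at 10.13, 10.19 and 10.77 against 11.33, 11.45 and 11.50 (-1.06 ± 0.19, adjusted p 0.0137). Bcl2, an inhibitor of apoptosis, had 6.42, 7.12 and 7.05 against 7.85, 7.64 and 7.82 (-0.91 ± 0.18, adjusted p 0.0334). The antisense RNA Nrg3os (-0.95 ± 0.19, adjusted p 0.0326) and Rapgef5, an exchange factor gene (-0.76 ± 0.16, adjusted p 0.0384), fell as well. Cntn5 and Stmn4 were each lost without cortex replicate 2 (0.0529), and Plxna1 without cortex replicate 1 (0.0587). For Taf1d the call ended on dropping callosal replicate 1 (0.0617), cortex replicate 2 (0.0668) or cortex replicate 3 (0.0542). For Ptprk it ended on dropping replicate 1 of either region (0.0582 callosal, 0.153 cortex) or callosal replicate 3 (0.1). Bcl2 (0.0806 to 0.142), Rapgef5 (0.0832 to 0.121) and Nrg3os (0.0573 to 0.137) were each lost without 4 of the 6 arrays, and Shank1 without any (0.0527 to 0.142). With the mean of a gene's probe sets in place of the brightest, Taf1d (11 probe sets, -0.52, adjusted p 0.0686), Bcl2 (-0.57, adjusted p 0.144) and Plxna1 (-0.45, adjusted p 0.0991) were not called.

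Markers of border macrophages gave a divided picture. Of 15 measured members 2 rose (13.3%, against 0.352% of all genes), 0 fell, 13 were above 0 and the median was 0.33, or 0.15 without callosal replicate 3 and 0.52 without callosal replicate 2. Left-out arrays gave 1 to 3 calls (1 without replicate 1 of either region or cortex replicate 3, 3 without callosal replicate 2). Folr2, a folate receptor gene of border macrophages, stood at 8.81, 8.29 and 8.62 in callosum and at 7.06, 7.13 and 6.64 in cortex. The groups were well apart (1.63 ± 0.22, adjusted p 0.00187). Ms4a7, given above among the MS4A genes, was the other. The mannose receptor gene Mrc1 went the other way, at 9.66, 9.61 and 9.65 against 10.37, 10.45 and 10.26 (-0.72 ± 0.27, adjusted p 0.255). Its arrays did not overlap although it was not called, as in 6.67% of all genes with callosum lower, called or not. Pf4 (7.31, 6.74 and 7.61 against 5.86, 7.41 and 5.75), Cd163 (4.76, 4.39 and 5.24 against 4.12, 4.48 and 4.66) and Lyve1 (6.56, 6.04 and 6.56 against 6.01, 6.57 and 5.80) overlapped between the regions. Colec12, a scavenger receptor gene, had 7.28, 6.56 and 7.11 against 5.81, 5.57 and 5.701 and missed the threshold (1.29, adjusted p 0.0647).

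The array means of the border macrophage list were 6.65, 6.27 and 6.93 in callosum and 6.08, 6.27 and 5.98 in cortex, and callosal replicate 2 lay within the cortical range. With the list's mean as a covariate the model called 2 genes, of which Hpse (adjusted p 0.0274) was among the 112. The differences in that fit were 3.11 for Atp6v0d2, 2.06 for Clec7a, 1.98 for Hpse and 1.23 for Anxa5. Ccl5 had 1.71, Itgax 1.501, Gpnmb 1.71 and Folr2, itself part of that mean, 1.06. Fabp5 went from 1.23 to 0.57, Pla2g7 from 1.56 to 0.56, Bnip3 from 1.75 to 0.905 and Plin2 from 0.92 to 0.55. All of these genes but Hpse had an adjusted p of 0.0705 to 0.707 in limma. Of monocyte markers 1 of 11 rose, the lysozyme gene Lyz2 (10.47, 10.56 and 10.56 against 9.65, 9.45 and 9.80; 0.90 ± 0.19, adjusted p 0.0384). Among all genes 0.352% were called higher. Lyz2 was lost whichever P3 array was left out (0.059 to 0.136). Of the monocyte list 9 of 11 differences were above 0, 4 were higher and 1 lower at an unadjusted p under 0.05, and the median was 0.34. At that threshold 7.68% of all genes were higher and 5.16% lower. The array means of the monocyte list were 6.02, 6.10 and 6.62 in callosum and 5.87, 5.92 and 5.97 in cortex, without overlap. The median was 0.09 without callosal replicate 3, 0.18 without cortex replicate 1 and 0.23 to 0.39 without each other array. Of its defining genes, Ly6c2 (3.72 to 4.77, difference -0.68) and Ccr2 (5.04 to 5.54, difference 0.22) were low on all 6 arrays. A further defining gene, Plac8, was nearly level between the regions (limma adjusted p 0.988, difference -0.175 to 0.19 over the arrays left out). Neutrophil, lymphocyte, oligodendrocyte, precursor, astrocyte, endothelial and erythroid markers had 0 called in limma (1, 0, 1, 0, 2, 0 and 0 higher and 0, 0, 0, 0, 1, 2 and 0 lower at an unadjusted p under 0.05). The neutrophil median was 0.25, or 0.02 without callosal replicate 3 and 0.04 without cortex replicate 3. The part of these cells in the differences was not tested.

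**Figure D4:**
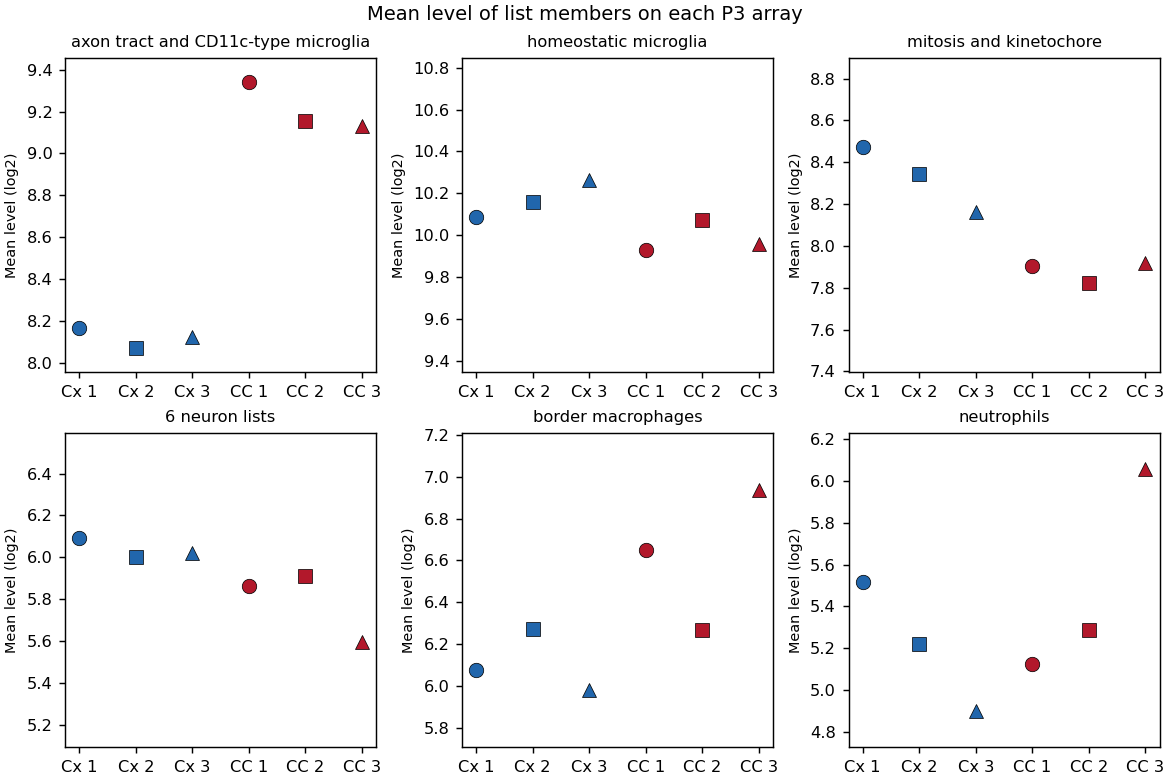
Mean log2 level of the measured members of 5 gene lists and of the 6 neuron lists together (vertical axes, each spanning 1.5 log2 units) on the cortex (Cx, blue) and corpus callosum (CC, red) arrays at P3, replicates 1 to 3. The CD11c-type means separate the regions by about 1 log2 unit, the border macrophage and neutrophil means overlap and peak on callosal replicate 3.

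Set side by side, the 17 microglial lists had 25 of 295 measured genes called higher (8.47%) and 0 lower, with a median of 0.15. The 6 neuron lists had 0 higher and 7 of 77 lower, and the border macrophage list 2 of 15 higher and 0 lower. Ms4a7 is counted in both the microglial and the border macrophage lists. Over all genes 0.352% were called higher and 0.153% lower. The lists were chosen with earlier results of these data known, so these counts describe the lists and cannot weigh one against another. Most called genes (78 of 112) were in no list, so the lists describe a minority of the calls. Hpse passed under all 15 alternatives tried. Of 47 called genes named by rule, 15 kept their call whichever P3 array was left out: Gpnmb, Hpse, Itgax, Ccl5, Folr2, Ccl6, Anxa2, Nceh1, Anxa5, Lgals1 and Lag3 among the higher, and Gap43, Scn2a, Arpp21 and Robo2 among the lower. Those 4 lower genes were not called when the P3 arrays were fitted alone (adjusted p 0.151, 0.111, 0.161 and 0.144). Of the higher genes just named, Ccl6 (0.0805) and Lgals1 (0.0904) were not called in that fit either. The CD11c-type genes Atp6v0d2 (0.142), Clec7a (0.144), Cst7 (0.159), Ccl9 (0.0904) and Pld3 (0.0792) were lost there too. The only lower call of that fit, named after its values were seen, was 1700080N15Rik.

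The same contrast at the later ages was set beside these values. The P3 arrays carry another label prefix than the P7 and adult arrays, so age and array set cannot be told apart, but each regional difference lies within 1 set. Of the 78 genes higher at P3, 73 were above 0 at P7 and 36 were called higher there, where 0.446% of all genes were (0.451% in either direction, 0.00451% lower), and their median was 0.72. In the adult 34 were above and 44 below 0, with a median of -0.03, and 0 were called, where Lpl alone (0.00451% of genes) passed in limma and 1888 genes had an unadjusted p under 0.05. The 34 lower genes had a median of -0.10 at P7, with 25 below 0 and 0 called in limma (1526 of all genes had an unadjusted p under 0.05), and of 0.03 in the adult. The difference between P7 and P3 itself was called for 0 of 22180 genes in limma (1260 at an unadjusted p under 0.05, smallest adjusted p 0.0952). The median of the 6 neuron lists was -0.19 at P3, -0.04 at P7 and 0.03 in the adult. Meg3 had -1.32, 0.001 and -0.02, and Gap43 -1.27, -0.84 and 0.29. Atp6v0d2 had 2.81, 4.404 and 0.22, and Itgax 1.94, 3.11 and -0.06.

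The regional difference changed between P3 and the adult in 40 genes (0.18%), 27 with a lower (0.122%) and 13 with a higher (0.0586%) difference in the adult. Hpse (-2.24 ± 0.29, adjusted p 0.00907), Gpnmb (-2.58 ± 0.48, adjusted p 0.0389) and Itgax (-1.997 ± 0.39, adjusted p 0.0455) lost their callosal excess. Gap43 (1.56 ± 0.26, adjusted p 0.0296) and Scn2a (1.23 ± 0.23, adjusted p 0.0389) lost their callosal deficit. Lpl, the lipoprotein lipase gene, gained an excess, from 0.34 at P3 to 1.70 in the adult (1.37 ± 0.20, adjusted p 0.0233). Of the 78 and 34 genes, 16 and 8 were among the 40. Both sets were chosen on the P3 difference, which is part of this contrast. Their overlap with the 40 and the losses above are thus in part built in. Without cortex replicate 1 or 2 at P3 only 1 gene was called in each case, and 12 to 24 were without each of the other P3 arrays. Ccl5 (1.86, 0.65 and 1.18) and Clec7a (1.98, 2.84 and 1.74) kept differences above 0 at all 3 ages, and neither was called in the adult.

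**Figure D5:**
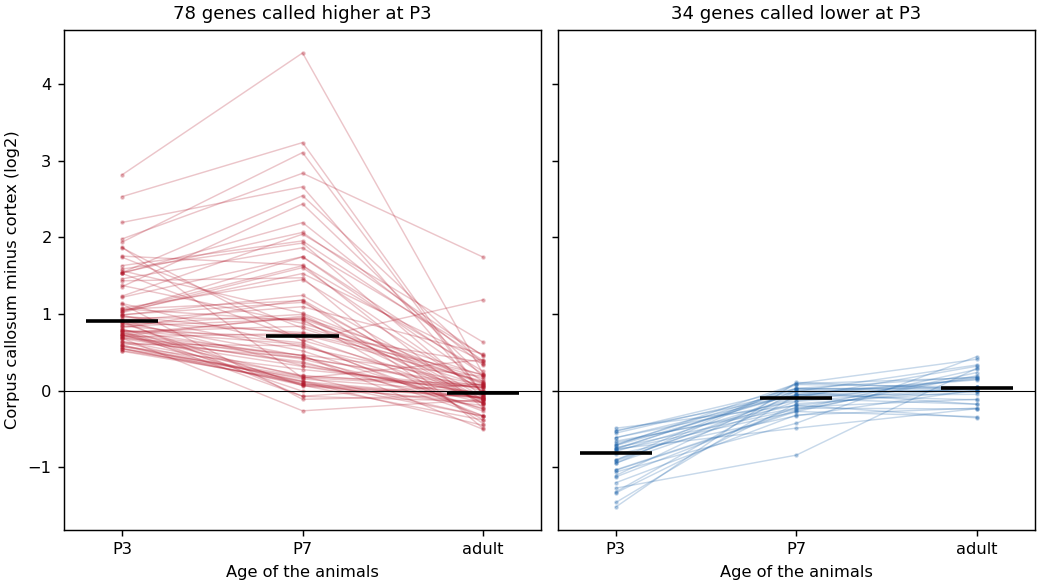
Difference between corpus callosum and cortex (log2, vertical axis) at P3, P7 and in the adult (horizontal axis) for the 78 genes called higher (left) and the 34 called lower (right) at P3, with a thin line per gene and medians as black bars. The medians run 0.90, 0.72 and -0.03 on the left and -0.81, -0.10 and 0.03 on the right; the genes were chosen on the P3 values, and P3 arrays belong to another array set.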

How the data were processed

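The values were deposited by the authors as log2 levels per probe set and array, made with RMA per the submitters' processing notes; its version is not given in the sources used here, nor is it stated whether all 18 arrays were normalized together. The log base is not stated and was taken as 2 from the values (0.87 to 13.78). RNA had been amplified with a NuGen whole-transcriptome kit before labelling, per the labels' protocols, which can add spread at low input. RMA compresses large differences and hides changes of total RNA per cell. Of 41345 probe sets, 23521 had 1 gene symbol in GEO's platform annotation, 1814 several and 16010 none; 23328 were matched to RefSeq (GRCm38.p6) and 0 symbols needed an update. The brightest probe set stood for a gene (1082 had more than 1).

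All 18 arrays in 6 groups entered a linear model in limma 3.58.1 (R 4.3.3; lmFit, contrasts.fit, eBayes; 12 residual and 5.89 prior degrees of freedom). Tests were two-sided, with Benjamini-Hochberg adjustment over 22180 genes. A value after ± is a standard error. An exact permutation test of 3 against 3 arrays cannot go below 0.1. The model was tested on simulated data. The members and gene lists were chosen with earlier results of these data known. Genes were named by rule: up to 16 per direction with the largest called difference and separate arrays (clones and small RNAs left out), all called list members, the 5 most abundant members of key lists, defining markers, genes whose regional difference changed with age (up to 6 per direction), and Xist and Y-linked genes. Uncalled list members outside this rule, and the genes of corpus callosum replicate 3, were chosen after their values were seen. Alternatives were other normalizations, variance estimation, filters and probe set rules, list means as covariates, the P3 arrays alone with and without a replicate block, and leaving out each P3 array. Figures were drawn with matplotlib 3.10.9.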

Additional observations from a re-analysis of the deposited data

Results flagged for a closer look

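The adult minus P3 change of the regional difference passed the limma test in 16 of the genes named by rule, which was the reason for listing them here. The change was -2.58 for Gpnmb (adjusted p 0.0389), -2.24 for Hpse (0.00907), -1.997 for Itgax (0.0455), -1.93 for Lag3 (0.0296), -1.67 for Ccl6 (0.0389), -1.49 for Tpi1 (0.0424), -1.33 for Pgk1 (0.0351), -1.05 for Cst7 (0.0407) and -1.003 for Anxa5 (0.045). It was 1.62 for Olfr493 (0.0407), 1.56 for Gap43 (0.0296), 1.55 for Zdhhc2 (0.0455), 1.51 for Taf1d (0.0351), 1.37 for Lpl (0.0233), 1.23 for Scn2a (0.0389) and 1.01 for Cntn5 (0.0351). Age and array set coincide in this contrast, and a set effect equal in both regions cancels. The P3 difference is itself part of the contrast, so for genes chosen on it a change is in part built in.

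Of the 17824 probe sets with no symbol or several symbols, 3 differed between the regions at P3 (2 higher and 1 lower, 0.0168%). They were not named.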

How the results depend on the processing

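None of the 47 called genes named by rule changed direction at P3 under any alternative run; the other called genes were not followed in this way. The main model called 112 genes at P3 (78 higher, 34 lower). The 6 P3 arrays alone, with no replicate block, gave 16 (15 and 1), all among the 112. Whether shared replicate numbers pair the arrays cannot be settled from 3 arrays a group. The deviations of same-numbered arrays correlated with 0.026, 0.016 and 0.109, and those of other-numbered arrays with -0.117 to 0.086. With the replicate block 9 were called (8 and 1). An intensity trend with robust estimation gave 197 (144 and 53), equal array medians 183 (153 and 30), and leaving out dim genes 251 (206 and 45) of 11897 tested. The neuron mean as a covariate left 19 (13 and 6) and the border macrophage mean 2 (2 and 0). Leaving out each P3 array gave 29 to 126 called, 18 to 91 higher and 11 to 41 lower. The lowest counts came without cortex replicate 2, the highest count of all and of higher genes without corpus callosum replicate 3, and that of lower genes without corpus callosum replicate 2. Quantile normalization again (121) and the mean of a gene's probe sets (115) moved the count by less than 1.5 times. The adult minus P3 count of 40 became 96 with trend and robust estimation, 17 after quantile normalization, 242 with equal medians, 190 without dim genes and 1 to 24 when an array was left out. The P7 minus P3 count was 0 in every setting run. The causes were not tested. The 3 arrays per group limit all counts, and levels below the array medians were not told apart from background.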
